A study of Mus musculus with 8 samples.

Results

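The AP-1 and immediate early genes described here are *Fos*, *Fosb*, *Fosl1*, *Fosl2*, *Jun*, *Junb*, *Jund*, *Atf3* and *Egr1*. A peak of the acetylated histone H3K27Ac in the neonatal mouse heart was counted to one of these 9 genes when its centre lay nearest to a curated RefSeq transcription start of that gene in the mm10 assembly. This gave 37 of 45980 peaks on chromosomes. They were spread over 8 of the 9 genes, with 10 peaks at *Fos*, 6 at *Fosb*, 3 at *Fosl2*, 5 at *Jun*, 1 at *Junb*, 4 at *Jund*, 2 at *Atf3*, 6 at *Egr1* and 0 at *Fosl1*.

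Chromatin was prepared from heart ventricles at postnatal day 7 of mice kept on a C57B/6J background, in a study that included males and females. The 2 control samples were homozygous for a loxP-flanked (floxed) *Arid1a* allele and carried no Cre. The 2 *Arid1a cKO* samples were homozygous for the same allele and also carried the *αMHC-Cre* transgene. This Cre acts in cardiomyocytes, so fibroblasts, endothelial cells and other ventricular cells of the mutant keep *Arid1a*, the gene of a DNA-binding protein of the SWI/SNF remodeling complexes. Each gave an H3K27Ac ChIP library and an input library, 8 libraries in all, and the question was how the mark at active promoters and enhancers depends on *Arid1a*. The deposited table gives each peak 1 mean per genotype and 0 values of single libraries. From these means no error between replicates can be given, how deeply each library was sequenced is not known, and every value below is the authors' group mean. Reads are linear normalized reads per peak, for which the sources used here do not say whether input reads were subtracted, and a difference is the log2 mean of *Arid1a cKO* minus that of controls, so that negative values stand for less H3K27Ac in the mutant. A peak was called where the difference reached 2-fold in size, with no test. The peak over the start of *Arid1a* itself had 1607 reads in controls against 1663 in *Arid1a cKO* hearts (0.05). The mark at a start is no measure of deleted exons, so this value does not check the genotype.

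Immediate early genes are transcribed within minutes of a growth, stretch or stress signal, without new protein synthesis, and their promoters are held ready by factors such as SRF, CREB and ATF proteins. The AP-1 factor is a dimer of a JUN protein with a FOS, an ATF or another JUN protein, while EGR1 is a zinc finger factor induced by the same signals. In the heart these genes respond to hemodynamic load.

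The promoter sequences are shown because the peaks over the starts of 8 of the 9 genes all had lower means in the mutant, as described further on. Sequences were taken from RefSeq for GRCm38.p6, the assembly that mm10 stands for, from 250 bases before to 50 bases after the start, on the strand of the gene and 5′ to 3′. Of the members, 7 were matched and used, and *Fosl1* and *Egr1* were not used here. The 5 promoters that hold a marked motif are printed, and those of *Fosl2* and *Jund*, which hold none, are not. Capitals mark the half-site of the cyclic AMP response element (TGACG or its reverse complement) and the 10-base core of the MEF2 motif, both chosen after the sequences were seen.
*Fos*, chr12:85473640-85473939, plus strand: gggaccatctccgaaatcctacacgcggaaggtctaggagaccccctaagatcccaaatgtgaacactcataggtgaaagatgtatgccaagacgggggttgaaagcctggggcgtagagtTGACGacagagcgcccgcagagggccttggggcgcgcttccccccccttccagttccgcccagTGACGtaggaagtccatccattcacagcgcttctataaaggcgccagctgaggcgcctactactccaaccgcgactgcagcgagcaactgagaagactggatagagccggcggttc
*Fosb*, chr7:19309996-19310295, minus strand: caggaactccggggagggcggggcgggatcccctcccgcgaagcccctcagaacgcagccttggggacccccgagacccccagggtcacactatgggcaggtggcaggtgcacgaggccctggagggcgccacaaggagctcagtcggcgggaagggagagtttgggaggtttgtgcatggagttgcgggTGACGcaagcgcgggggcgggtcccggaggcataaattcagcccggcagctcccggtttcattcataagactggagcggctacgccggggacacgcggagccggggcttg
*Jun*, chr4:95052173-95052472, minus strand: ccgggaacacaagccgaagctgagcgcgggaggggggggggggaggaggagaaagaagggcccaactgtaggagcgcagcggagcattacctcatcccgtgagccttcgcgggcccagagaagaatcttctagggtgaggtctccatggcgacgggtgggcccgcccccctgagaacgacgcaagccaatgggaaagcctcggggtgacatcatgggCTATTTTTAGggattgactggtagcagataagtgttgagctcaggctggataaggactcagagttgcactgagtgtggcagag
*Junb*, chr8:84978699-84978998, minus strand: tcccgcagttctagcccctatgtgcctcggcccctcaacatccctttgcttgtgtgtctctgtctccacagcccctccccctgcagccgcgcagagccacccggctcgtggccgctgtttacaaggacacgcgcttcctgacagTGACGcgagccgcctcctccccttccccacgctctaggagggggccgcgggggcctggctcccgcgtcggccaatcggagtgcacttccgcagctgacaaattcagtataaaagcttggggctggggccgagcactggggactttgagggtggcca
*Atf3*, chr1:191183284-191183583, minus strand: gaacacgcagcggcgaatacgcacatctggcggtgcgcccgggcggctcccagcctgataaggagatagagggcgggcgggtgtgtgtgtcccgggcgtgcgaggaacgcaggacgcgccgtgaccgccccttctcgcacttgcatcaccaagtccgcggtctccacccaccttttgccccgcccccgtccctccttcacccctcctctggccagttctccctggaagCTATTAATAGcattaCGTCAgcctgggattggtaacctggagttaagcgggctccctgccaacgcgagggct

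The half-site was found in 4 of the 7 promoters, those of *Fos*, *Fosb*, *Junb* and *Atf3*, against 20.8% of 32851 promoters of the same length. In *Fos* it began 129 and 66 bases before the start, in *Fosb* 60 bases, in *Junb* 106 bases and in *Atf3* 7 bases before the start. The MEF2 core lay in 2 of the 7, 33 bases before the start of *Jun* and 22 bases before that of *Atf3*, and in 0.557% of all promoters. The full AP-1 motif TGANTCA, the full cyclic AMP response element TGACGTCA and the CArG box bound by SRF were in 0 of the 7 windows, against 7.81%, 1.79% and 1.63% of all promoters. Every motif was searched on both strands, and each full cyclic AMP response element also counts as a half-site. A match is given as a description of the letters only.

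The peaks reach further than these windows. In the peak over the *Fos* start a CArG box began 309 bases before the start, and in the peak over the *Fosb* start it began 272 bases before it. The peak over *Junb* held 2, of which the nearer to the start is shown. The AP-1 match in the *Atf3* peak, 543 bases into the gene, and 3 AP-1 matches far upstream of *Jun* are shown with them as examples of the motif that JUN dimers bind, picked after the matches were seen. Capitals mark the motif, with 10 bases on each side, on the strand of the gene.
*Fos* CArG box, chr12:85473571-85473600, plus strand: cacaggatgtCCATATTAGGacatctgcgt
*Fosb* CArG box, chr7:19310298-19310327, minus strand: tggccgagctCCTTATATGGctaattgcgt
*Junb* CArG box, chr8:84980149-84980178, minus strand: cttcctgtgcCCTAATATGGgtgctgggga
*Atf3* AP-1, chr1:191182775-191182801, minus strand: tgcgcggaggTGACTCAcactctggcg
*Jun* AP-1, chr4:95081843-95081869, minus strand: catgtgaagcTGAGTCAccctgagttc
*Jun* AP-1, chr4:95094778-95094804, minus strand: gggtggagggTGAGTCAacaaagggtg
*Jun* AP-1, chr4:95105558-95105584, minus strand: cagctcagcaTGAGTCAgtcagtcccc

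A CArG box was found in 4 of the 8 peaks that cover a member's start and in 25.8% of the 2856 start-covering peaks whose widths fall in the range of these 8. AP-1 motifs lay in 5 of the 8, against 70.4% of those peaks of like width, and the MEF2 core in 2 of the 8, against 12.5%. In the central 500 bases, a window of equal length in every peak, AP-1 motifs were found in 2 of the 37 peaks and in 14.4% of all peaks. Over the whole length of the peaks they lay in 16 of the 37, or 43.2%, and in 44.7% of all peaks.

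Mean H3K27Ac differed by less than 2-fold between the 2 genotypes at most of the 37 peaks. A fall of at least 2-fold was seen at 0 of 37 peaks, beside 10.6% of all peaks, and a rise of at least 2-fold at 2 of 37, beside 4.57% of all peaks. At the background shares, 37 peaks would hold 3.93 lower and 1.69 higher ones. The median difference was 0.04 over the 37 peaks and 0.01 over all peaks, with 18 of the 37 below 0 and 19 above. A difference of at most 0.5 in size was found at 31 of them, which is 83.8%, while the same holds for 65.9% of all peaks. The median depended on weak peaks. Of the 7 member peaks under 20 reads in both groups, 6 were above 0. Over the other 30 the median was −0.125, with 17 below 0 and 13 above.

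**Figure D1:**
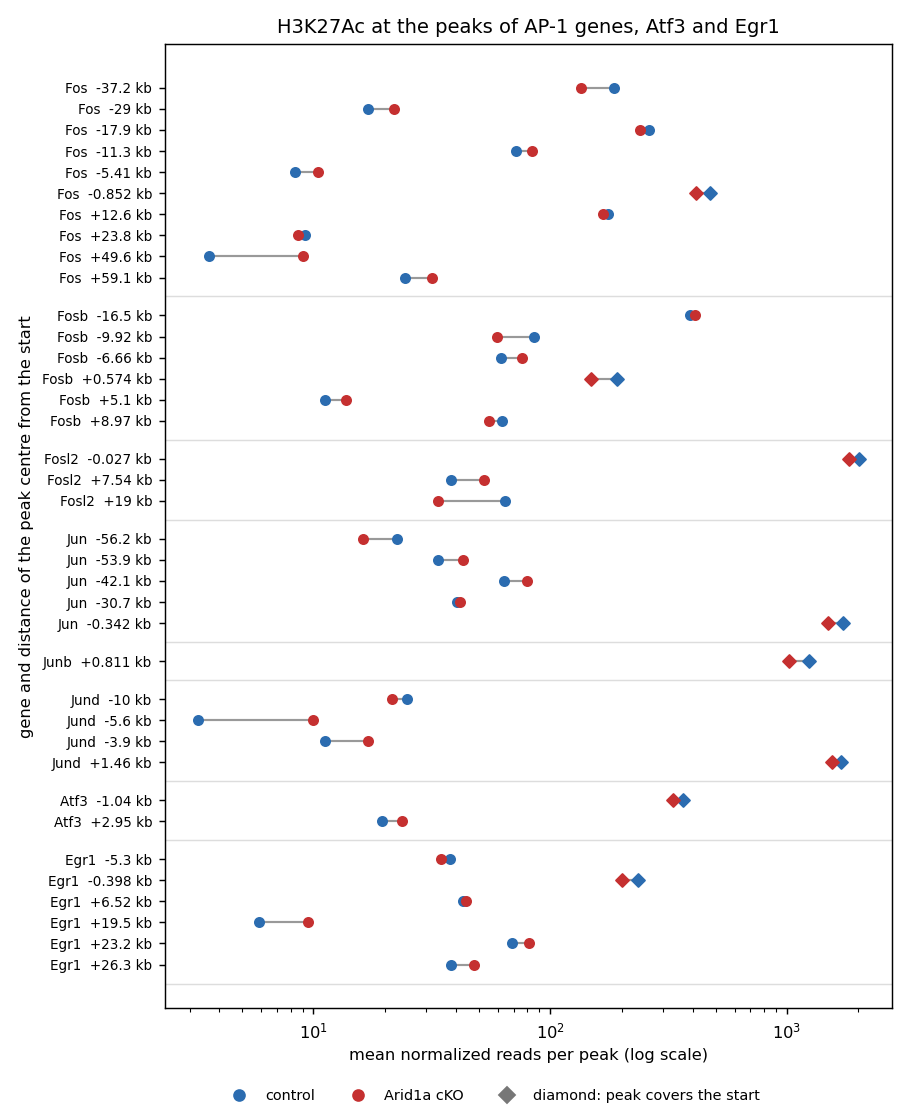
Mean normalized reads (x axis, log scale) in control (blue) and *Arid1a cKO* hearts (red) at each of the 37 peaks, labelled by gene and by the distance of the peak centre from the start, with diamonds for peaks that cover the start. The 8 diamonds all have the red mark to the left of the blue one, and the widest gaps to the right are at peaks under 10 reads in both groups.

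Because small means scatter more, all peaks were split by overall signal into 10 groups of equal size, and each peak was also set against its own group. In the weakest group, which ends at 10.5 reads, 17.4% of peaks were at least 2-fold lower and 16.3% at least 2-fold higher, while in the strongest group, from 302 reads up, these shares were 1.13% and 0.0652%. Of the 37 peaks, 36 lay between the 10th and the 90th percentile of their signal group, 0 below and 1 above.

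**Figure D2:**
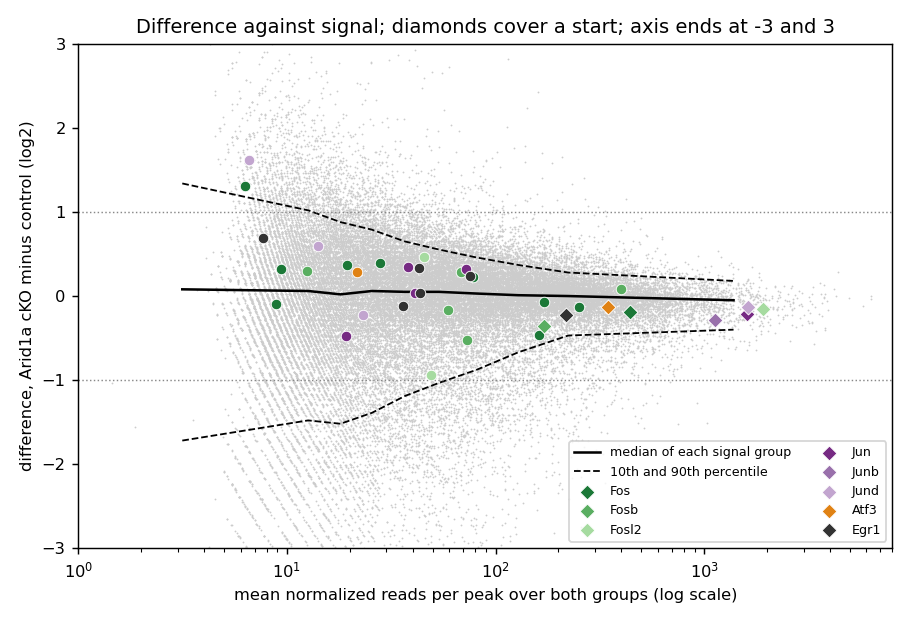
Difference (y axis, log2) against mean normalized reads over both groups (x axis, log scale) for all peaks (gray) and the 37 peaks of the 8 genes (colored, diamonds where the start is covered), with the median, 10th and 90th percentile of each of the 10 signal groups joined by lines and dotted lines at 2-fold. Peaks beyond a difference of 3 in size are not drawn. The diamonds lie under the median line at the strong end. The 2 called peaks lie above the upper line, 1 of them past the 90th percentile of its group.

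*Fos* encodes the founding FOS protein, which binds DNA as a dimer, typically with a JUN protein. Its start on chromosome 12 was covered by a peak from 85470897 to 85475179, whose centre lay 852 bp upstream. This peak held 471 reads in controls against 413 in *Arid1a cKO* hearts, a difference of −0.19. It made up 38.4% of the control reads of the 10 *Fos* peaks, the rest of which were intergenic and reached from 37.2 kb upstream to 59.1 kb downstream of the start.

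Enhancers around *Fos* that answer to different stimuli are known from neurons. The strong peak 37.2 kb upstream had 186 reads in controls against 135 in *Arid1a cKO* hearts, a difference of −0.46, while 14.2% of the peaks of like signal, described above, had lower ones. It held 3 AP-1 motifs in 3202 bp. The peak 17.9 kb upstream had 261 and 239 reads (−0.13), and the peak 12.6 kb downstream 175 and 167 reads (−0.07). These 3 strong peaks had less H3K27Ac in the mutant, as had the peak over the start.

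Weaker *Fos* peaks leaned the other way. The peak 11.3 kb upstream had 71.5 reads in controls and 83.9 in the mutant (0.23), the peak 29.0 kb upstream 16.9 and 21.9 (0.37), and the peak 59.1 kb downstream 24.3 and 31.8 (0.39). Of the remaining 3 peaks, the one 49.6 kb downstream was among the 2 called peaks, with 3.63 reads in controls against 9.0 in *Arid1a cKO* hearts, 2.48-fold higher, a call that is lost with a pseudocount of 5 reads, without peaks under 20 reads in both groups or when every RefSeq transcript is used. The other weak ones, 5.41 kb upstream and 23.8 kb downstream, differed by 0.32 and −0.10. Summed over the 10 peaks, *Fos* had 1227 reads in controls and 1119 in the mutant, a difference of −0.13.

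*Fosb* encodes a further FOS protein, whose shorter splice form accumulates after repeated stimulation. The peak from 19307830 to 19311112 on chromosome 7 covered its start and was centred in a 5′ untranslated exon. It had 191 reads in controls against 149 in *Arid1a cKO* hearts, and the difference of −0.36 was the most negative among the start-covering peaks of the 8 genes. Among peaks of like signal, 13.2% had lower differences.

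The strongest *Fosb* peak lay 16.5 kb upstream and had 388 reads in controls against 410.1 in *Arid1a cKO* hearts (0.08), so at this gene the signal of the distal peak exceeded that of the start. Between them, the peak 9.92 kb upstream had 85.6 and 59.7 reads (−0.52) and the peak 6.66 kb upstream, with 4 AP-1 motifs in 2019 bp, 61.8 and 75.6 reads (0.29). Neighbouring peaks of this gene thus differed in sign. Inside and past the gene, the peak in the 3′ untranslated exon had 11.2 and 13.7 reads (0.30), and the one 8.97 kb downstream of the start 62.2 and 55.3 (−0.17). The sums over the 6 peaks were 800.2 reads in controls and 764 in the mutant, a difference of −0.07.

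*Fosl2* encodes FRA-2, a FOS relative without the strong activation domain of FOS. A peak of 8175 bp on chromosome 5, from 32132358 to 32140532, covered its start with 2019.8 reads in controls against 1820.4 in *Arid1a cKO* hearts (−0.15). It was the strongest of the 37 peaks. The peak with the most negative difference of all 37 was also at this gene: on the same chromosome from 32154569 to 32156291, centred 19.0 kb into the gene in the 3′ untranslated exon, it had 64.4 reads in controls and 33.6 in the mutant, a difference of −0.94 or 1.92-fold lower. That is just inside the 2-fold limit, and 11.2% of the peaks of like signal had lower differences. The remaining peak, in an intron 7.54 kb into the gene, had 38.1 and 52.3 reads (0.46), so the 2 peaks inside *Fosl2* differed in sign.

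*Fosl1* encodes FRA-1, which is made later after a stimulus than FOS. No peak was nearest to its start on chromosome 19. Within 50 kb of the start there were 8 peaks, each nearest to another gene. The one that overlapped the end of *Fosl1*, centred 9.98 kb downstream of its start and covering the starts of *Ccdc85b* and *Fibp*, had 1097 reads in controls against 1060.1 in *Arid1a cKO* hearts (−0.05). The peak 32.9 kb upstream, nearest to *4930481A15Rik*, had 27.3 and 11.4 reads, a fall of at least 2-fold. None of the 8 peaks covered the start of *Fosl1*.

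*Jun* encodes the main activating JUN protein, the target of the JNK kinases. Its start on chromosome 4 lay in a peak from 95049597 to 95055531 with 1722 reads in controls against 1489 in *Arid1a cKO* hearts (−0.21). Per kb, this was the densest of the start-covering peaks of the 8 genes, at 290.2 reads per kb in controls and 250.9 in the mutant. The promoter printed above, with its MEF2 core, lies within it. The other 4 *Jun* peaks were intergenic, 30.7 to 56.2 kb upstream, and had between 22.5 and 64.0 reads in controls. With every RefSeq transcript counted, not only the curated ones, these 4 and the peak over the start were nearest to *Junos*.

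The upstream *Jun* peaks split by sign. The peak 42.1 kb upstream had 64.0 reads in controls against 79.9 in *Arid1a cKO* hearts (0.32), the peak 53.9 kb upstream 33.6 and 42.8 (0.35), and the peak 30.7 kb upstream 40.5 and 41.6 (0.04). Each of these 3 held 1 of the AP-1 motifs shown above. The peak 56.2 kb upstream, with 0 AP-1 motifs, had 22.5 and 16.1 reads (−0.48). With 91.5% of its control reads in the peak over the start, the sums for *Jun* were 1883 and 1669 reads, a difference of −0.17.

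*Junb* encodes a JUN protein that restrains JUN at many promoters. It had a single peak of 10317 bp on chromosome 8, from 84972779 to 84983095, which covered the whole gene and held 1243 reads in controls against 1017 in *Arid1a cKO* hearts. The difference was −0.29, with 16.0% of the peaks of like signal lower. With 3 AP-1 motifs and 2 CArG boxes it was the widest of the 37 peaks.

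*Jund* encodes the JUN protein that is present without stimulation and is not a typical immediate early gene. A peak from 70694766 to 70703626 on the same chromosome covered the start of *Jund* and that of *Iqcn*, with 1687 reads in controls and 1541 in the mutant (−0.13), which was 97.7% of the control reads of the gene. Reads in this peak cannot be told apart between the 2 genes. It held the only full cyclic AMP response element, TGACGTCA, among the 37 peaks. The other called peak of the 37 lay 5.60 kb upstream of the start and had 3.25 reads in controls against 9.99 in *Arid1a cKO* hearts, 3.07-fold higher, the 1 peak above the 90th percentile of its signal group. This call is lost under the same 3 settings. Its control mean was barely above 3 reads, which was set as the floor of the table. The peaks 3.90 and 10.03 kb upstream had 11.2 and 17.03 reads (0.60) and 24.9 and 21.4 reads (−0.22).

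*Atf3* encodes a stress-induced ATF protein that pairs with JUN proteins and often represses. The peak from 191181871 to 191186869 on chromosome 1, centred 1.04 kb upstream, covered its start with 362 reads in controls against 331 in *Arid1a cKO* hearts (−0.13). A weak peak in an intron 2.95 kb into the gene had 19.4 and 23.8 reads (0.29). The start held 94.9% of the control reads, and the sums over both peaks, 381 and 355 reads, differed by −0.11.

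*Egr1* encodes a zinc finger factor that is induced with *Fos* by growth factors and by pressure load. Its start on chromosome 18 was covered by a peak from 34858843 to 34862776 with 234 reads in controls against 201 in *Arid1a cKO* hearts (−0.22). This peak held 5 CArG boxes, 3 of them in its central 500 bases. The other 5 peaks were intergenic. The strongest of them, 23.2 kb downstream, had 68.6 reads in controls and 81.0 in the mutant (0.24), the one 26.3 kb downstream 38.1 and 47.8 (0.33), and the one 6.52 kb downstream 42.8 and 44.0 (0.04). A peak 5.30 kb upstream had 37.5 and 34.5 reads (−0.12), and the weakest, 19.5 kb downstream, 5.90 and 9.51 reads (0.69). Summed over 6 peaks *Egr1* had 427 and 418 reads, a difference of −0.03.

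Across the 8 genes, the peaks over the starts had the same direction. All 8 had less H3K27Ac in the mutant, with differences from −0.36 to −0.13, a median of −0.20 and between 8.62% and 22.1% fewer reads, and none was near 2-fold. They belonged to the 2 strongest of the 10 signal groups, in which the median difference was 0.00 and −0.05, and all 8 were below the median of their group, with 13.2% to 33.7% of its peaks lower. Among the 5653 start-covering peaks of these 2 groups, 56.1% were below 0, the median was −0.03 and the 10th percentile −0.30. *Fosb*, at −0.36, lay below that percentile and the other 7 above it. Whether they exceed the spread between hearts was not tested here, and the authors' own comparison of the hearts was not used.

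The order of the start-covering peaks by density was the same in both genotypes. In controls it ran from *Jun* (290.2 reads per kb) and *Fosl2* (247 reads per kb) through *Jund* (190.4), *Junb* (121) and *Fos* (110.0) to *Atf3* (72.4), *Egr1* (59.5) and *Fosb* (58.3 reads per kb). In *Arid1a cKO* hearts the ends of the order were *Jun* with 250.9 and *Fosb* with 45.4 reads per kb.

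The 29 peaks that cover no member start were mostly intergenic (25 of 29) and differed in sign, with more above 0 than below. Their median difference was 0.24, with 10 below 0 and 19 above, while the median over the 33958 peaks of the table without a start was 0.02. Of the 29, 25 had under 100 reads in controls, with 18 above 0, and 4 had more, with 3 at *Fos* below 0 and 1 at *Fosb* above. The other 8 member peaks of 100 reads or more were those over the starts, so strength and position at a start cannot be told apart among the member peaks. Over all peaks with 100 reads or more in controls the median was −0.05, and over those under 100 it was 0.07. Control reads enter the difference, so a split by them by itself lowers the strong side and raises the weak side. In the 10 groups by overall signal, the median was 0.08 in the weakest and −0.05 in the strongest. With the 7 peaks under 20 reads in both groups left out of the 29, the median over the remaining 22 was 0.06, with 9 below 0 and 13 above.

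**Figure D3:**
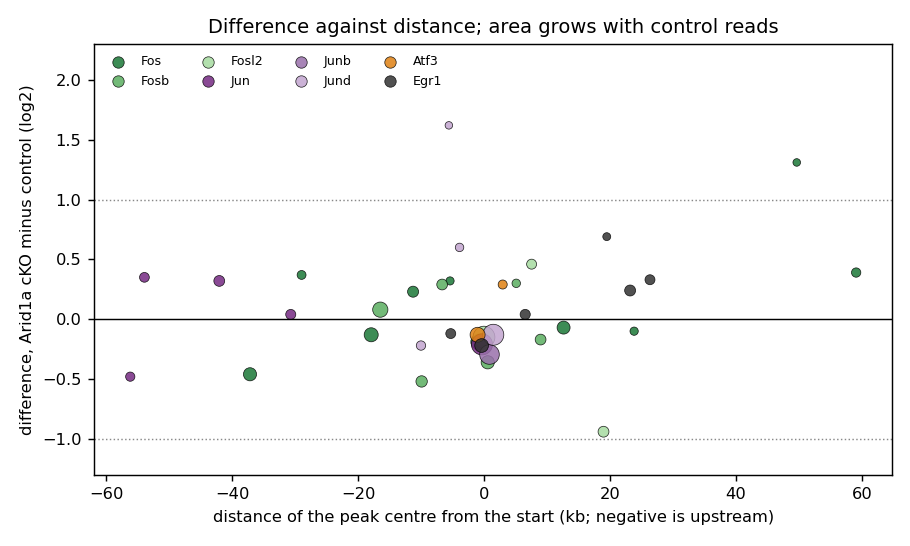
Difference (y axis, log2) of the 37 peaks against the distance of the peak centre from the start in kb (x axis, upstream negative), colored by gene, with larger marks for more control reads and dotted lines at 2-fold. The large marks at 0 kb lie between −0.36 and −0.13, and the 2 marks above 1 are small.

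Within 50 kb of a member's start there were 66 peaks, of which 32 were nearest to a gene outside the group. Among these 32, 4 were at least 2-fold lower, nearest to *Rtn2*, *4930481A15Rik*, *Rnaseh2a* and *Reep2*, and 2 at least 2-fold higher, nearest to *Rnaseh2a* and *Fam71a*, which is near the shares of 10.6% and 4.57% over all peaks. At *Rnaseh2a*, beside *Junb*, the peak over the start had 16.4 reads in controls against 37.5 in *Arid1a cKO* hearts, and the other peak 42.8 and 14.2. These genes were named after their values were seen.

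AP-1 proteins act at the sites they bind, so the peaks of the whole table were also split by the AP-1 motif in their central 500 bases. Of the 6612 peaks with TGANTCA there, 10.9% were at least 2-fold lower and 5.52% at least 2-fold higher in the mutant. Of the 39368 without it the shares were 10.6% and 4.41%, and the median differences were 0.04 and 0.01. Among peaks that cover no start, 12.3% with the motif and 14.1% without it were lower, and 6.23% and 5.69% were higher. With these peaks split into 4 groups at the signal limits of the whole table, from the weakest up, the median was 0.10, 0.10, 0.04 and −0.02 with the motif and 0.05, 0.02, 0.01 and −0.03 without it. Peaks with and without AP-1 letters thus had medians within 0.10 of 0 in every signal group. Peaks with the MEF2 core in the central 500 bases, 1186 in all, had a median of −0.34, with 22.8% lower and 3.04% higher. Those without it had a median of 0.02, with 10.3% and 4.61%. By signal group, where no start was covered, the medians with the core were −0.41, −0.57, −0.31 and −0.15. Without it they were 0.06, 0.05, 0.02 and −0.03. The shares at least 2-fold lower were 31.2%, 33.2%, 17.3% and 1.82% with the core. Without it they were 16.5%, 14.7%, 12.2% and 5.63%. The strongest group, with 165 peaks with the core and 4601 without it, went the other way in this share but not in its median. The MEF2 cores of the peaks over *Jun* and *Atf3* lay outside the central 500 bases.

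The genes that work with AP-1 were taken as further lists, each read against the same background of 10.6% lower and 4.57% higher peaks. The largest falls and rises named for these lists are those among peaks of at least 20 reads in a group. The dimer partners, which are the JDP2, BATF, ATF, MAF, NFE2 and BACH proteins, had 80 peaks at 17 of 19 genes, with 0 at *Batf2* and *Mafa*. Of these, 2 were at least 2-fold lower and 1 higher, and the median was 0.06. *Mafk*, a small MAF protein, had the strongest peak over a start, with 1287 reads in each genotype. The largest fall was at *Jdp2*, a repressor of AP-1, in a peak 41.8 kb downstream of its start with 23.6 and 8.06 reads, and the largest rise 167 kb downstream of the start of *Maf*, with 14.8 and 40.2 reads.

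CREB factors, which bind the cyclic AMP response element, and their coactivators had 34 peaks at 9 genes, 4 of them at least 2-fold lower and 0 higher, with a median of −0.17. The histone acetyltransferase gene *Ep300*, whose product writes H3K27Ac, had 975.5 reads at its start in both genotypes. The largest fall lay 14.5 kb upstream of *Crtc1*, a CREB coactivator, with 25.6 and 10.4 reads, and the largest difference upward at *Creb5*, with 134 and 224 reads (0.74), short of 2-fold. SRF, which binds the CArG box, and its cofactors had 42 peaks, with 2 lower and 2 higher and a median of −0.06. *Elk3*, an ETS cofactor of SRF, had 3795 and 3769 reads in a broad peak that covers its start. The centre of that peak lay 19.9 kb downstream of the start, and its density in controls was 89.6 reads per kb. A peak 40.2 kb upstream of *Mrtfb*, an actin-regulated SRF coactivator, had 115 reads in controls against 31.8 in *Arid1a cKO* hearts, 3.61-fold lower. The 2 higher peaks were at *Mrtfa* and *Mrtfb* and had under 20 reads in both groups. The largest upward difference above that limit was at *Myocd*, the myocardin gene, with 14.8 and 21.9 reads (0.56).

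The MAP kinases that lie upstream of AP-1 had 41 peaks at 17 genes, of which 5 were at least 2-fold lower and 1 higher, with a median of −0.05. *Mapk3*, which encodes ERK1, had 474 and 468 reads at its start. The largest fall was at *Mapk13*, a p38 kinase gene, where a peak had 21.4 reads in controls and 3.32 in the mutant, and the largest rise upstream of *Map2k6*, a kinase of p38, with 16.7 and 46.9 reads, 2.81-fold higher. The relatives of *Egr1* and the NAB corepressors of EGR proteins had 13 peaks, 0 lower and 2 higher, with a median of 0.08 and with 0 peaks at *Egr4*. *Nab2* had 568 and 635 reads at its start and *Nab1*, with the lowest difference of that list, 217 and 205 (−0.08). The start of *Egr3* had the largest difference among the starts of that list, with 13.7 and 27.1 reads (0.98), just short of 2-fold. A peak 11.03 kb upstream of *Egr3* had 14.3 and 29.9 reads.

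**Figure D4:**
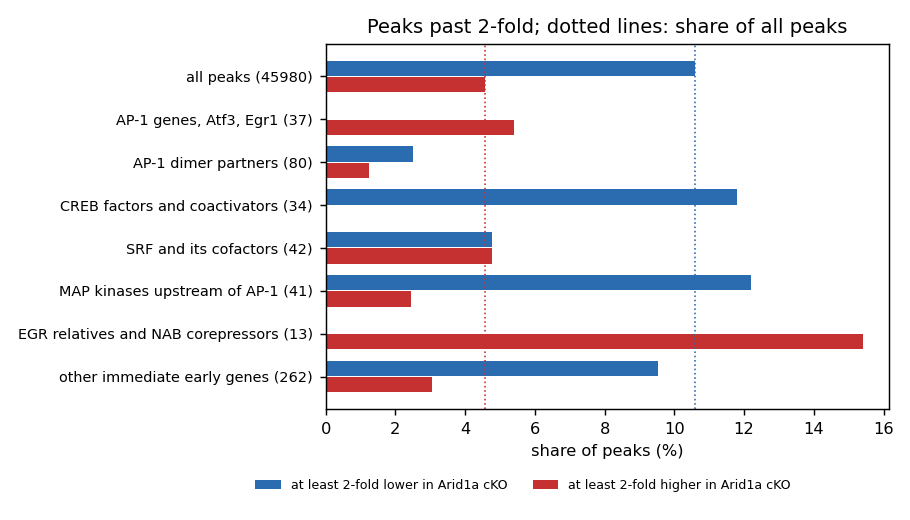
Share of peaks (x axis, %) at least 2-fold lower (blue) or at least 2-fold higher (red) in *Arid1a cKO* hearts, for all peaks, the 37 peaks of the 8 genes and each further list, with the number of peaks in brackets and dotted lines at the shares of all peaks. No blue bar appears for the 37 peaks, and their red bar, at 5.41%, rests on 2 peaks.

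The other immediate early genes, from *Ier2* and *Myc* to the DUSP phosphatases and the KLF factors, were a list of 45 genes with 262 peaks. Of these peaks 25, or 9.54%, were at least 2-fold lower and 8, or 3.05%, higher, with a median difference of −0.05. The lower peaks were nearest to 15 genes. Peaks over starts were present at 44 of the 45 genes, and 0 of them were called in either direction. Their differences ran from −0.41 to 0.37, 29 below 0 and 15 above. *Mcl1*, an anti-apoptotic BCL2 relative, had the strongest one, with 3327 and 2957 reads (−0.17). Of all start-covering peaks 1.70% were lower and 1.16% higher, against 13.8% and 5.78% of peaks that cover no start, so calls away from starts are not particular to this list. A peak 31.9 kb upstream of *Ccn1*, the gene of a matricellular protein, had 37.3 reads in controls against 0.946 in *Arid1a cKO* hearts, at least 12.4-fold lower against the floor of 3 reads, whereas the start of *Ccn1* had 1089.9 and 1128 reads (0.05). Among peaks of at least 20 reads in a group, the largest rise was in an intron of *Dusp4*, a phosphatase of MAP kinases, with 8.88 and 27.1 reads. At strong distal peaks, chosen after their values were seen, *Klf4* had 313 and 152 reads 469 kb upstream, *Sik1* 236 and 81.0 reads 65.7 kb downstream of its start, and *Trib1* 125 and 53.4 reads 37.0 kb downstream.

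**Figure D5:**
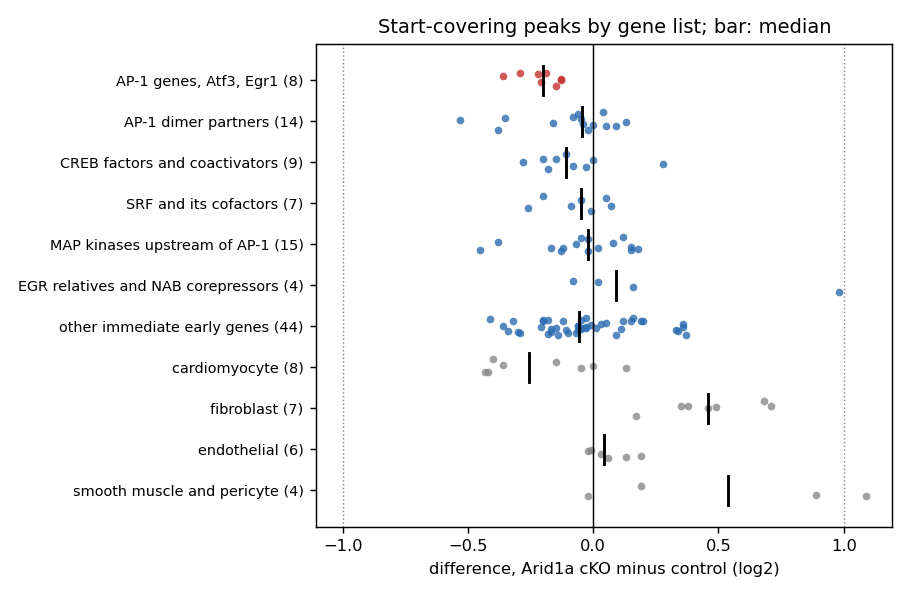
Difference (x axis, log2) at the peak over the start of each gene, 1 point a gene, for the AP-1 genes with *Atf3* and *Egr1* (red), the further lists (blue) and cell type markers (gray), with a bar at each median, the number of genes in brackets and dotted lines at 2-fold. The 8 red points lie between −0.36 and −0.13, the cardiomyocyte median is also below 0, and the 7 fibroblast points are above 0.

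The markers of heart cells place these values. Of 8 cardiomyocyte genes, all had a peak over the start, and *Myh6*, the strongest, had 3591 and 3929 reads, so the tissue label held. Their start-covering peaks ran from −0.43 to 0.13, 6 of them below 0, and the 35 peaks nearest to 7 of them, with 0 at *Actc1*, 3 lower and 2 higher, summed to 16519 reads in controls against 15132 in *Arid1a cKO* hearts. All 7 fibroblast markers had higher values at their starts, from 0.17 to 0.71, with *Tcf21* strongest at 416 and 541 reads, and their 49 peaks, 9 of them at least 2-fold higher and 0 lower, summed to 3641 and 4960.1 reads. The 6 endothelial markers lay between −0.02 and 0.19 at the start, led by *Cdh5* with 1479 and 1618.0 reads, and their 47 peaks, 2 lower and 1 higher, summed to 11020.2 and 11223 reads. Smooth muscle and pericyte markers were covered at 4 of 5 starts, from −0.02 to 1.09, with *Pdgfrb* strongest at 891 and 1017 reads and *Tagln*, at 15.6 and 33.1 reads, past 2-fold, and 17 peaks, 0 lower and 2 higher, summed to 1660 and 2126 reads. Of the macrophage markers 0 of 5 starts were covered, with 0 peaks at *Adgre1* and *Lyz2*, and 4 peaks, with 0 called, summed to 105 and 154 reads.

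Genes foreign to the ventricle gave no peak over a start, with 0 of 4 for hepatocytes, where *Alb* and *Serpina1a* had 0 peaks, and 0 of 4 for neurons, where *Tubb3* had 0. Their 12 and 7 distal peaks summed to 1168 and 1083.8 reads and to 362 and 242 reads in the 2 genotypes, with 3 of the 12 and 4 of the 7 at least 2-fold lower and 0 higher. In bulk ventricles, fewer cells of a type and less signal per cell cannot be told apart. The part of the lower cardiomyocyte and higher fibroblast values in the differences at the 8 starts was not tested.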

How the data were processed

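H3K27Ac ChIP-Seq of P7 ventricles was grouped by genotype as labelled. The authors aligned the reads to mm10 by BWA 0.7.17-r1188. Regions called by HOMER findPeaks in histone style, with all inputs merged, were dropped by the authors when a single sample held them, and DiffBind 2.12.0 with DESeq2 1.24.0 gave the group values. The deposited concentrations are log2 values of the authors' mean normalized read count in each group. How libraries were scaled for them is not given. The table also holds the fold change, p-value and FDR of the authors' own comparison, which were not used. Means at or under 3 normalized reads were treated as a floor, which left all list medians as they were.

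Peaks were joined to 45756 curated RefSeq transcripts of GRCm38.p6. All 21 chromosomes fitted the reference, and 7 peaks on unplaced sequences were left out. A peak counted as promoter when its centre lay between 1000 bp before and 100 bp after a start. Peaks were split into 10 groups by overall concentration. Motifs were matched on both strands, and the half-site and the MEF2 core were added after the data were seen. Members and lists were chosen with earlier results of these data known. Named genes are all 9 members, of each list the gene with the highest control mean at a peak over its start and those of the largest fall and rise among peaks of at least 20 reads in a group, and of each marker list the first of these. Any other gene was named after its values were seen. Alternatives changed the fold limit, centring, pseudocount, filter and peak assignment. The steps were tested on simulated data. Python 3.11.15 was used with numpy 2.4.6, pandas 2.3.3 and matplotlib 3.10.9.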

Additional observations from a re-analysis of the deposited data

How the results depend on the processing

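Over the AP-1 genes, *Atf3* and *Egr1*, 0 peaks were 2-fold lower, 2 were 2-fold higher and the median difference was 0.04. At a limit of 1.5-fold, 1 was lower and 4 were higher, beside 7957 and 5528 of all 45980 peaks. With a pseudocount of 5 reads, 0 were higher. Without peaks under 20 reads in both groups, 0 were higher and the median was −0.13. When every RefSeq transcript was used, 0 of 21 were higher and the median was −0.10, and the 2 higher peaks went to *Gm32296* and *Gm39191*. That setting also gave every *Jun* peak, the one over the start included, to *Junos*, and some other *Fos*, *Fosb* and *Jund* peaks to other genes. Over all 66 peaks within 50 kb, 4 were lower and 4 higher. Without *Fos* or without *Jund* 1 was higher. The median was −0.07 without *Egr1* and −0.015 without *Jun*. It was also below 0 when centred on the same signal group (−0.01), over member peaks within 50 kb (−0.015) and over all 66 peaks (−0.055). Over peaks that cover no start it was 0.24, a choice made after the data were seen. Beyond these constructions, the cause was not tested. The differences at the 8 starts stayed below 0 under both centrings and the pseudocount, from −0.37 to −0.08. No paired analysis was possible because the table has no per-sample values, and leaving out replicates could not be run for the same reason. Small means limit the weak peaks.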
